A study of Mus musculus with 2 samples.

Results

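Mitotic spindle and kinetochore genes build and steer the machinery that divides the chromosomes, and 52 of them, chosen by symbol, were followed here out of 55357 features in both matrices of the study. For this work, 20 of them were named late mitotic genes by a textbook grouping, and the other 32 were called early G2 genes. The study treated tumours of RM-1, a mouse prostate cancer line, grown under the skin of C57BL/6 mice. RP-6306 is a compound that inhibits PKMYT1, which holds CDK1, the driver of mitotic entry, inactive by phosphorylation. The mice received vehicle or RP-6306, tumours were collected on day 10, and each treatment gave 1 droplet-based single-cell library of 3' transcript ends. Both groups carry the same genotype label, WT, and the labels do not make clear how many mice each library holds. A single library per treatment leaves no spread between animals to test against, so "higher" and "lower" compare these libraries. Intervals are 95% intervals that cover counting error only, and they are too narrow to the extent that UMIs (unique transcript molecules) of a gene clump in the same cells.

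In a dividing cell, transcripts of this machinery are low in G1, build up through G2 and peak around mitosis. Kinesins and microtubule-binding proteins form the spindle, and kinetochores, protein plates on the centromeres, tie each chromosome to it. The spindle checkpoint holds the cell in metaphase until every kinetochore is attached, and the anaphase promoting complex with its activator CDC20 then marks securin and cyclin B for destruction. Genes of this kind often carry a CCAAT box, the site of NF-Y, and a CHR (cell cycle genes homology region), through which the DREAM and MuvB complexes keep them off outside G2 and on within it.

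Promoter sequences are shown for some of the members that recur below, to let the shared elements be seen beside their levels. RefSeq promoters (build GRCm38.p6) were found for 43 of the 52 genes, with 47 start sites. The bases just after the start occurred in an annotated transcript of the gene for 31 of the 47, and the other starts were not checked further. The 250 bases before each start were searched on both strands. The letters TTTGAA or CTTGAA, forms of the CHR, were in 22 of the 47 promoters (46.8%), against 25.1% of all 32851 promoters. CCAAT was in 35 (74.5%), against 33.8% of all. Both were in 19 (40.4%), against 8.76% of all. At least 2 copies of CCAAT were in 48.9%, against 10.1%. The late mitotic promoters held the CHR letters in 52.6% and CCAAT in 84.2%, and the early G2 promoters in 42.9% and 67.9%. The last 120 bases before the start are printed 5′ to 3′ on the gene's own strand, with every match on either strand in capitals (a match on the other strand appears as its reverse complement). They lie at chr2:164769809-164769928 (Ube2c, plus strand), chr11:99024190-99024309 (Top2a, minus strand), chr4:118437344-118437463 (Cdc20, minus strand), chr7:80294356-80294475 (Prc1, plus strand, the downstream of its starts), chr19:37376262-37376381 (Kif11, plus strand) and chr5:33658008-33658127 (Tacc3, plus strand). Tacc3 is shown because it differed most between the libraries and holds neither set of letters in this window. The printed windows are examples and hold both sets of letters more often than the 47 promoters do. Of other members that recur, Nusap1 and Birc5 hold neither in the 250 bases, and Plk1 and Cenpf hold CCAAT only. The other start of Prc1 holds no CHR letters.
Ube2c: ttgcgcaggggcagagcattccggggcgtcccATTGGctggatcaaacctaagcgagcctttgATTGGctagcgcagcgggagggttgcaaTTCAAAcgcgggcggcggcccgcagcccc
Top2a: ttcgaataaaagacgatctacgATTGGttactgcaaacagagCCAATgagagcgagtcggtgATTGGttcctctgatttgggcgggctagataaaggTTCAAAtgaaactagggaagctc
Cdc20: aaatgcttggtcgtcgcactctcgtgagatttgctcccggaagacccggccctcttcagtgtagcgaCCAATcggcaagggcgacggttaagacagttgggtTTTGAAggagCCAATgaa
Prc1: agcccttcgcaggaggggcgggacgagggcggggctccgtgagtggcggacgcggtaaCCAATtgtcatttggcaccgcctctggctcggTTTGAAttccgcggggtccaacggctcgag
Kif11: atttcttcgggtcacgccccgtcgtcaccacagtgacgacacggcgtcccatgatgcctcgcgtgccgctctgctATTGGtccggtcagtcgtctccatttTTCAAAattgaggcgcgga
Tacc3: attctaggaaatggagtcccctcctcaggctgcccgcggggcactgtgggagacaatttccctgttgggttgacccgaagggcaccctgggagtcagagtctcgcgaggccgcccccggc

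After removal of poor barcodes and of likely doublets, 8856 vehicle and 9500 RP-6306 cells were retained from 100815022 and 106465655 UMIs, and the libraries shared 34 barcode sequences. Tumour cells were gated by at least 3 UMIs of Krt8 and Krt18, keratins of simple epithelium, and at most 1 UMI over 4 leukocyte genes. The gate kept 6894 vehicle and 7167 RP-6306 cells, with medians of 10170.5 and 10120 UMIs and of 1.31% and 1.28% mitochondrial UMIs. Krt18 stood at 602 and 625 CPM (counts scaled to a fixed total per gate and library) in them, but Krt8, a gene of the gate, at 1044 and 787. Epcam and Cdh1, markers of epithelium, were at no more than 3.71 CPM, and the prostate genes Pbsn and Tmprss2 had 0 UMIs in both libraries, which allows up to 0.0377 and 0.0368 CPM, so the label of a prostate cell is not carried by these markers. A list of 10 macrophage markers summed to 31.9 and 29.9 CPM in tumour cells, against 15484 and 15422 in macrophages, and T cell markers to 0.993 and 1.74. The list of 5 fibroblast markers summed to 748 and 828 CPM, of which Col3a1 gave 570.2 and 629 and Col1a1 166 and 184, while Dcn and Pdgfra were at no more than 2.97 CPM. The list of 5 endothelial markers summed to 52.5 and 62.7 CPM, of which Cdh5 gave 43.8 and 55.5, while Pecam1 and Kdr were at no more than 1.19 CPM. Both sums were higher in the RP-6306 library, and the part of such cells or transcripts in the results was not tested.

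Every one of the 52 genes had a lower level in tumour cells of the RP-6306 library. Their summed level was 3861 CPM in the vehicle and 3214 CPM in the RP-6306 library, a ratio of 0.832 (0.828 to 0.837). Per-gene differences are given as log2 of RP-6306 over vehicle on CPM + 1, and 34 of the 52 genes stood at -0.25 or lower, where 6.57% of all 13671 genes with at least 100 UMIs did. None stood at 0.25 or higher, where 5.24% of all genes did. Krt8 sets the gate and was itself lower, and with the gate raised to 10 UMIs of Krt8 and Krt18 23 genes were at the limit, and with it lowered to 1 UMI, a setting chosen after seeing the data, 35 were. The members' median was -0.28, beside a median of -0.02 over all genes, of which 55.6% were below 0. At -0.5 or lower stood 2 members, Tacc3 and Ncapg, and 0.592% of all genes. Gtse1 lay just inside the limit and Ect2 just outside it, both at -0.25 when rounded. Exact intervals of the ratio lay below 1 for 50 of the 52, all except Dlgap5 and Foxm1, and for 27.0% of all genes tested. None of the 52 lay above 1, where 17.8% of all genes did. These are levels summed over cells, so fewer cells in G2 and mitosis and fewer transcripts per such cell cannot be told apart here. Cells are divided by a score of stage further on, which does not fully part them either.

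**Figure D1:**
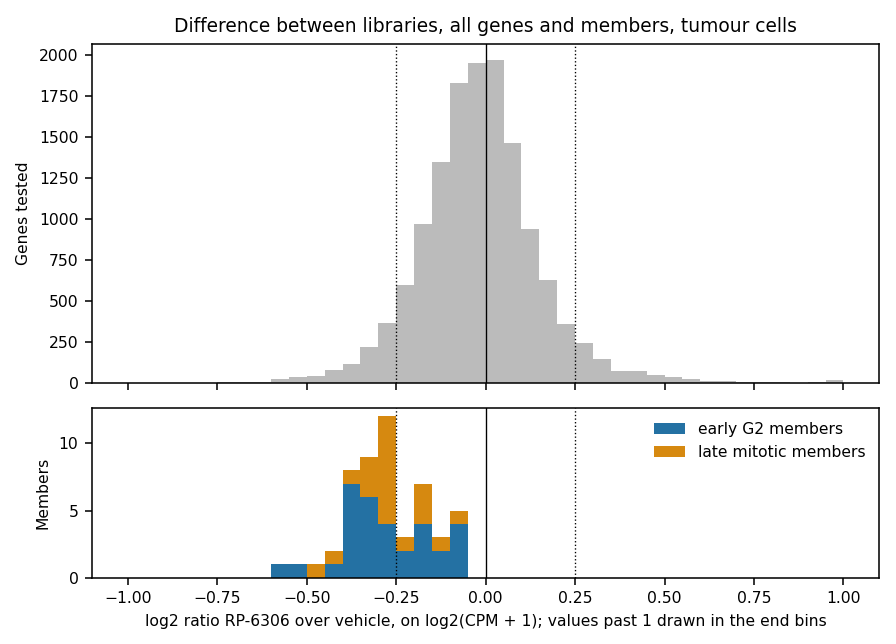
Distribution of the log2 ratio (RP-6306 over vehicle, tumour cells) of all tested genes beside that of the spindle and kinetochore genes. All 52 spindle and kinetochore genes sit below 0, between -0.59 and -0.05, while all genes centre near -0.02.

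Levels within a library spanned a wide range. In the vehicle library the genes ran from 7.78 CPM (Gtse1) to 431 CPM (Ube2c) with a median of 45.0, and in the RP-6306 library from 6.36 to 361 CPM with a median of 35.3. The least covered gene still had 619 and 519 UMIs, so counting error alone is small beside most of the differences. UMIs count molecules at their 3' ends and were not divided by transcript length.

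**Figure D2:**
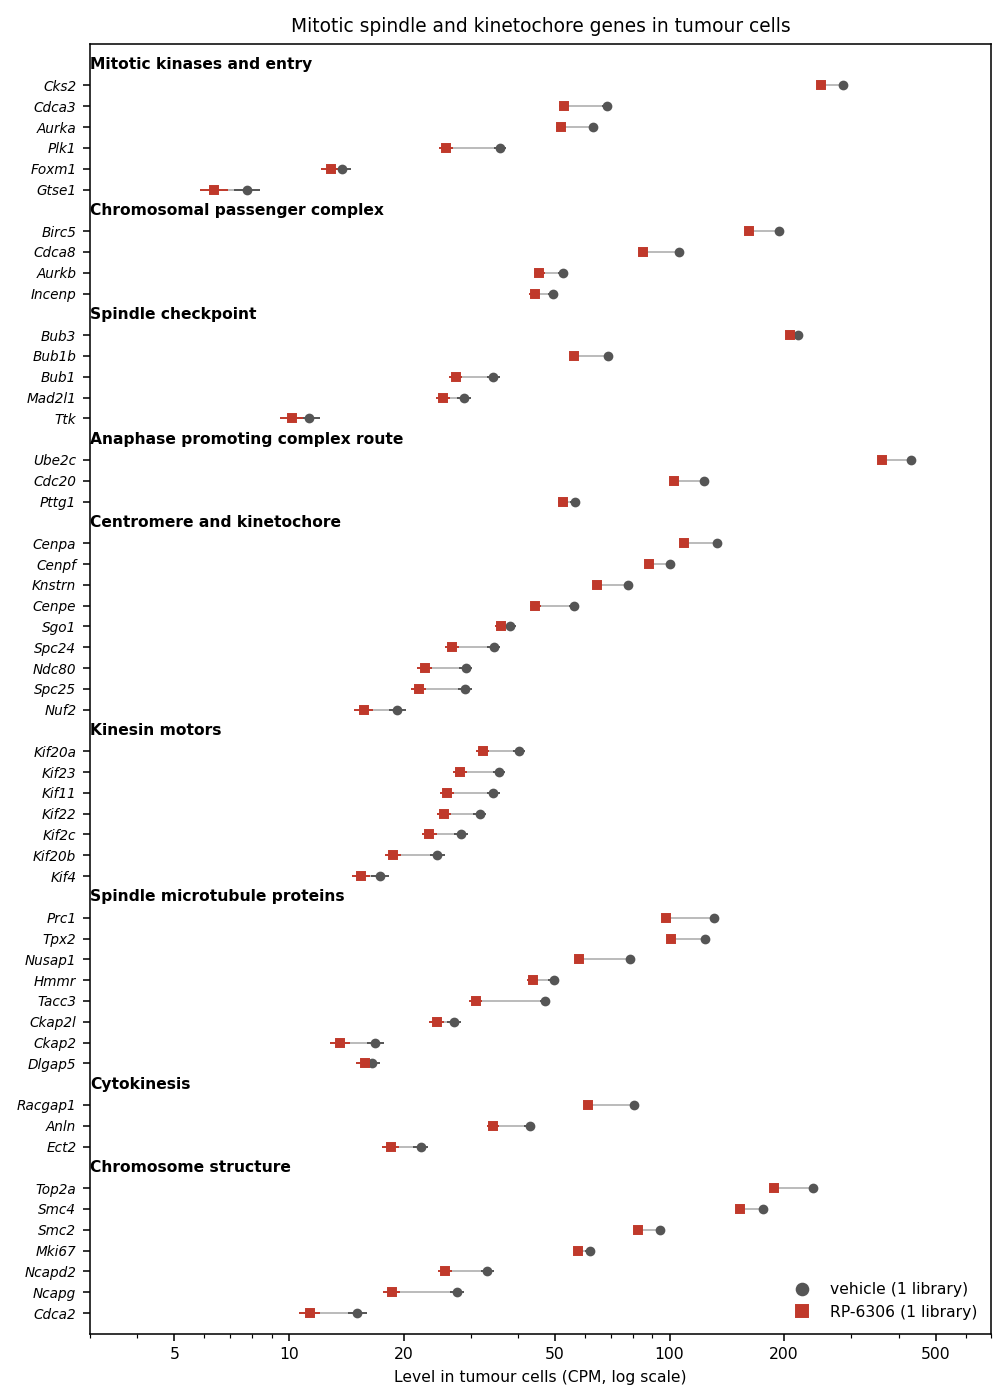
CPM of each spindle and kinetochore gene in tumour cells of the vehicle and RP-6306 libraries on a log axis, with exact 95% Poisson intervals. The RP-6306 value lies below the vehicle value for every gene, with the widest gaps at Tacc3, Ncapg and Plk1.

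Among the 6 mitotic kinases and entry factors, 4 were at or past the limit of -0.25. Plk1, the polo-like kinase that matures centrosomes and promotes mitotic entry, stood at 35.9 CPM (34.6 to 37.3) in the vehicle library against 25.8 CPM (24.7 to 27.0) in the RP-6306 library, which is -0.46 on the log2 scale. Aurka, the kinase that activates PLK1 at centrosomes and helps to build the spindle poles, was at 63.1 and 51.8 CPM, a log2 ratio of -0.28. Cks2, a small partner of cyclin-dependent kinases and the most abundant of these genes, was at 284.9 and 249.7 CPM, a log2 ratio of -0.19. For these 3 genes the intervals of the libraries did not overlap. Cdca3, which triggers destruction of the CDK1 inhibitor WEE1, was at 68.3 and 52.9 CPM. Foxm1, the transcription factor that drives many genes of this set, was at 13.8 CPM (12.9 to 14.6) and 12.9 CPM (12.1 to 13.7). Its intervals overlapped, and its ratio was 0.936 (0.859 to 1.02).

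The chromosomal passenger complex, which corrects faulty attachments at centromeres and later directs cytokinesis, had 2 of its 4 subunits at or past the limit. Birc5, the subunit survivin, was the most abundant with 193.9 and 161.4 CPM, a log2 ratio of -0.26. Cdca8 (borealin), which binds survivin, was at 106 and 85.2 CPM, a log2 ratio of -0.31. The kinase Aurkb was at 52.5 CPM (51.0 to 54.2) against 45.5 CPM (44.0 to 47.0) (log2 ratio -0.20.) Incenp, the scaffold of the complex, was at 49.3 and 44.2 CPM, a log2 ratio of -0.16. The intervals of the libraries were apart for each subunit, and the scaffold and the kinase were nearer to equal than the pair that docks the complex on chromatin.

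By sum, spindle checkpoint genes differed least of the role groups, with a ratio of 0.902 (0.887 to 0.918). At or past the limit were 2 of 5. Bub3 gave 218 of the summed 361 CPM in the vehicle and 207 of 326 CPM in the RP-6306 library. The summed ratio therefore mostly reads that 1 gene. Bub1, the kinase that marks centromeric chromatin and recruits checkpoint proteins, was at 34.5 and 27.4 CPM, a log2 ratio of -0.32. Bub3, the adaptor that docks checkpoint proteins on kinetochores, was the most abundant with 218 CPM (214 to 221) against 207 CPM (204 to 210.0) (log2 ratio -0.07.) Bub1b, part of the inhibitor of CDC20, was at 69.1 and 56.3 CPM. Mad2l1, another part of that inhibitor, and Ttk, the kinase that starts the signal, had log2 ratios of -0.18 and -0.14. The anaphase promoting complex route lies downstream. Ube2c, the ubiquitin-conjugating enzyme of that complex and the most abundant of all 52, was at 431 CPM (427 to 436) against 361 CPM (357 to 365) (log2 ratio -0.26.) Cdc20, the activator, was at 123.5 CPM (121.1 to 126.0) against 102.6 CPM (100.4 to 104.8) (log2 ratio -0.27.) Pttg1, the securin that restrains separase until anaphase, was at 56.4 and 52.4 CPM, a log2 ratio of -0.10. Over all tumour cells, enzyme and activator were thus lower by a like amount, and securin was nearer to equal. Securin varied little with stage, as given below. In the cells richest in other G2 and mitotic genes, also described below, its log2 ratio was -0.26 (ratio 0.835, 0.687 to 1.01). Those of Ube2c and Cdc20 were -0.08 and -0.16 there.

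Of 9 centromere and kinetochore genes, 7 were at or past the limit. Cenpa, the histone H3 variant that marks the centromere, was the most abundant with 133 and 109 CPM, a log2 ratio of -0.29. The 4 subunits of the NDC80 complex, the microtubule grip of the kinetochore, had similar log2 ratios, of -0.34 (Ndc80), -0.28 (Nuf2), -0.35 (Spc24) and -0.39 (Spc25). Spc25 had the lowest ratio of the group, from 29.1 CPM (27.9 to 30.3) to 21.9 CPM (20.9 to 22.9). Cenpe, a kinetochore kinesin that carries chromosomes to the spindle equator, was at 56.1 and 44.4 CPM. Knstrn, which helps kinetochores hold microtubules, was at 77.7 and 64.6 CPM. Cenpf, a large outer kinetochore protein, was at 101 and 88.5 CPM, a log2 ratio of -0.18. Sgo1 (shugoshin), which protects centromeric cohesin, was at 38.2 CPM (36.8 to 39.6) against 36.2 CPM (34.9 to 37.5) (log2 ratio -0.08.) Its intervals overlapped, whereas those of the NDC80 subunits were apart.

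Kinesin motors differed more, with 6 of 7 at or past the limit and a summed ratio of 0.799 (0.781 to 0.817). Kif11, the motor that pushes the spindle poles apart, was at 34.4 CPM (33.2 to 35.8) against 26.0 CPM (24.9 to 27.1) (log2 ratio -0.39.) Kif20a, which carries the passenger complex to the midzone, was at 40.3 and 32.3 CPM, a log2 ratio of -0.31. Kif4, a motor on chromosome arms, was the exception at 17.4 CPM (16.5 to 18.3) against 15.5 CPM (14.7 to 16.4) (log2 ratio -0.16.) Kif20b, Kif22, Kif23 and Kif2c lay between -0.37 and -0.27.

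Spindle microtubule proteins had the lowest and the highest ratio of all 52 genes. Tacc3, which crosslinks the microtubule bundles that pull on kinetochores, lies on chromosome 5 from 33658128 to 33678995 (plus strand, GRCm38) and was at 47.1 CPM (45.6 to 48.6) and 31.0 CPM (29.8 to 32.2). Its log2 ratio was -0.59, its ratio was 0.657 (0.625 to 0.692), and of the 13671 genes 28 had a lower log2 ratio. Nusap1, which binds microtubules near chromosomes, was at 78.8 and 57.9 CPM, a log2 ratio of -0.44. Prc1, the crosslinker of the central spindle and the most abundant of the group, was at 131 and 97.7 CPM, a log2 ratio of -0.41. Tpx2, which starts microtubules around chromosomes and activates Aurora A, was at 124 and 101 CPM, a log2 ratio of -0.29. At the other end, Dlgap5, a protein that stabilises kinetochore fibres, was at 16.5 CPM (15.6 to 17.4) against 15.9 CPM (15.02 to 16.8) (log2 ratio -0.05) with overlapping intervals. Hmmr, Ckap2l and Ckap2 were at -0.18, -0.15 and -0.29.

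Cytokinesis genes had a summed ratio of 0.784 (0.762 to 0.805), next to 0.786 (0.774 to 0.797) for the spindle microtubule proteins, the lowest of the role groups and not separable by their intervals. Racgap1, a GTPase-activating protein of the central spindle, was at 80.5 CPM (78.5 to 82.5) against 61.2 CPM (59.5 to 63.0) (log2 ratio -0.39.) Ect2, the exchange factor that RACGAP1 recruits, was at 22.2 and 18.5 CPM, a log2 ratio of -0.25. Anln (anillin), the scaffold of the contractile ring, was at 42.9 and 34.4 CPM. Among 7 genes of chromosome structure, 4 were at or past the limit. Top2a, the topoisomerase that untangles sister chromatids, was at 239 CPM (235 to 242) against 188 CPM (185.0 to 191) (log2 ratio -0.34.) Ncapg, a subunit of condensin I, was at 27.7 CPM (26.5 to 28.8) against 18.6 CPM (17.7 to 19.6) (log2 ratio -0.55.) Ncapd2, of the same complex, was at -0.36, while the condensin cores Smc2 and Smc4 were at -0.19 and -0.20. Cdca2, which directs protein phosphatase to chromatin at anaphase, was at 15.1 and 11.3 CPM. Mki67, the surfactant-like coat of mitotic chromosomes and a common marker of proliferation, was at 61.8 CPM (60.1 to 63.5) against 57.6 CPM (56.0 to 59.3) (log2 ratio -0.10.) Ncaph, the remaining condensin I subunit and outside the set, was at 27.5 and 24.4 CPM, a log2 ratio of -0.16, so the subunits of this complex were not alike.

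The early G2 and late mitotic groups did not part between the libraries. The early group is the remainder of the set and also holds cytokinesis genes such as Racgap1 and Anln. The comparison is therefore not one of G2 with mitosis proper. The 32 early genes summed to 1966 and 1637 CPM and the 20 late genes to 1895 and 1577 CPM, and both ratios were 0.832 (0.826 to 0.838 and 0.826 to 0.839). UMIs of late genes stood to those of early genes as 0.964 in each library. The early group had 20 genes at or past the limit and a median of -0.30, and the late group had 14 and a median of -0.27. Within each group the spread was wider than the gap between them, from -0.59 (Tacc3) to -0.07 (Bub3) among early and from -0.46 (Plk1) to -0.05 (Dlgap5) among late genes.

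To set the genes beside a score of G2 and mitosis, cells were thinned to 5000 UMIs. They were then divided by 10 other genes of this phase that are no members (Ccna2, Ccnb1, Ccnb2, Cdk1, Cdkn3, Cdc25c, Pbk, Aspm, Cep55 and Nek2). The thinning left 6388 vehicle and 6640 RP-6306 cells, and 506 and 527 shallower cells were left out. Cells with 6 or more UMIs of these anchor genes were 837 in the vehicle library (13.1%, exact binomial interval 12.3 to 14.0) and 631 in the RP-6306 library (9.50%, 8.81 to 10.2). The difference was -3.60 percentage points (-4.70 to -2.50), and -1.93 points (4.89% and 2.96%) when cells were thinned to 3000 UMIs. Both shares were themselves smaller at 3000 UMIs, so the differences in points at these depths are not on one scale. Cells with 2 to 5 were 16.9% and 16.4%, and cells with 0 or 1 were 70.0% and 74.1%. The anchors themselves had a summed ratio of 0.826 over all tumour cells, so these shares read the same difference through other genes of the phase. The classes are ranges of a score and not cell types: 400 vehicle and 365 RP-6306 cells had 5 or 6 anchor UMIs, next to the limit.

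Within the anchor-high cells the members summed to 11969 CPM in the vehicle and 10855 CPM in the RP-6306 library, a ratio of 0.907 (0.895 to 0.920), or 59.8 and 54.3 UMIs of these genes per cell. In cells with 2 to 5 anchor UMIs the sums were 5721 and 5681 CPM, a ratio of 0.993 (0.977 to 1.01). In anchor-low cells they were 885 and 818 CPM, a ratio of 0.924 (0.906 to 0.943). Macrophages without anchor UMIs, described below, held 628 and 635 CPM of the members without thinning. How much of the anchor-low level is RNA from other cells was not tested. At the thinned levels the ratio over all tumour cells was 0.814. With the vehicle levels held and the RP-6306 shares of cells applied it was 0.866, and with the shares held and the RP-6306 levels applied it was 0.937. Applying the other library's shares of cells thus moved the sum further than applying its levels within a bin. Fewer anchor transcripts per cell would also make the anchor-high share smaller. Number of cells and level per cell are therefore not separated by these values, and neither was tested.

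**Figure D3:**
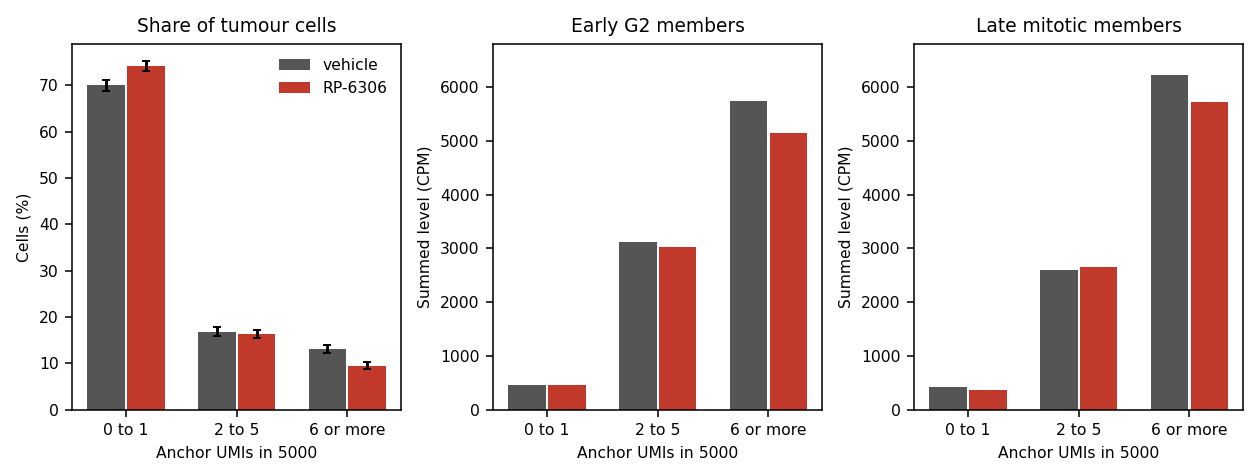
Share of tumour cells (percent, with exact 95% intervals) and summed CPM of early G2 and of late mitotic genes (without intervals) by anchor UMIs (0 to 1, 2 to 5, 6 or more) in both libraries. The anchor-high share is 13.1% against 9.50%. In those cells early genes sum to 5744 against 5135 CPM and late genes to 6224 against 5720 CPM.

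The bin does not hold stage exactly, since the anchors that define it were at 1760 and 1689 CPM within it, a ratio of 0.960 (0.926 to 0.994). In anchor-high cells 47 of the 52 were below 0 and the median was -0.15, with 12 at -0.25 or lower (13.7% of 7037 tested genes were) and 2 at 0.25 or higher (11% of genes were). Intervals of the ratio lay below 1 for 22 members and above 1 for none, against 9.59% and 8.27% of those 7037 genes. Tacc3 was at 149 and 113 CPM in these cells, a ratio of 0.756 (0.661 to 0.862). Nusap1 was at 312 and 241 CPM, Ncapg at 81.0 and 59.3 CPM, and Top2a at 735 and 635 CPM. Plk1 was at 130.5 and 115.1 CPM, with a ratio of 0.882 (0.770 to 1.01). Cenpf was at 382 and 381 CPM and Mki67 at 200 and 199 CPM, with no gap left. Kif4 and Dlgap5, at 0.26 and 0.27, were the genes on the higher side. Early genes summed to 5744 and 5135 CPM in these cells, a ratio of 0.894 (0.876 to 0.912), and late genes to 6224 and 5720 CPM, a ratio of 0.919 (0.902 to 0.937). In anchor-low cells the order was the other way, with ratios of 0.976 (0.950 to 1.003) for early and 0.866 (0.841 to 0.892) for late genes. The early ratio there rests in part on Bub3, which was higher in the RP-6306 library. Bub3 gave 143 of the 468 early CPM in anchor-low vehicle cells and 154 of 457 CPM in anchor-low RP-6306 cells. There, 13 of 49 measured genes were at -0.25 or lower, against 9.8% of 11228 genes, and none at 0.25 or higher, against 6.9%.

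How far each gene depended on stage differed strongly. Nusap1 differed most between anchor-low and anchor-high vehicle cells, at 6.71 and 312 CPM, a log2 difference of 5.34. Ube2c was at 54.3 and 1636 CPM, and Top2a at 33.7 and 735 CPM. Bub3 was at 143 and 433 CPM, a log2 difference of 1.60. Pttg1 was nearly flat, at 57.9 and 66.4 CPM in the vehicle and 55.5 and 55.5 CPM in the RP-6306 library. The median log2 difference was 3.88 for early and 4.22 for late genes in the vehicle library, and 3.96 and 4.22 in the RP-6306 library. Across the 52 genes, which share libraries and cells, these differences correlated between libraries with Pearson r = 0.98 and Spearman rho = 0.92. With the log2 ratio between libraries they correlated only weakly, at r = -0.34 and rho = -0.23.

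A list of 24 S phase genes, such as those of replication licensing, divided the anchor-high cells further. The first class held 216 vehicle and 151 RP-6306 cells with at most 5 S phase UMIs. The second held 240 and 175 cells with 12 or more. A middle class between these limits was the largest, with 381 and 305 cells, and was left out of the placing that follows. Cells that have left S phase and are in G2 or mitosis should be richer in the first class, so log2 of the level in the first over the second gave each gene a place in time. The 20 late genes were all above 0 in both libraries, with medians of 0.82 and 0.68. Of the 32 early genes, 25 and 23 were above 0, with medians of 0.24 and 0.10. The order of genes was alike in both libraries (r = 0.79, rho = 0.82 over 52 genes). Cenpf was at 503 against 208 CPM in vehicle cells, a log2 difference of 1.27. Cdc20 was at 487 against 230.0 CPM, and Kif20a at 165 against 85.0 CPM. Top2a was level at 756 against 723 CPM. Spc24 was lower in the first class, at 74.1 against 103 CPM, and so was Ncapg, at 70.4 against 86.7 CPM. The groups overlapped, with 15 of the 32 early genes inside the range of the late genes in each library (0.27 to 1.27 in the vehicle and 0.21 to 1.65 in the RP-6306 library). Tacc3 had the highest value of the early genes in the vehicle library, with 192 against 98.3 CPM and a log2 difference of 0.96, and in the RP-6306 library stood at 118 against 89.1 CPM, a difference of 0.40. This placing had no relation to the ratio between libraries (r = -0.01, rho = 0.02 in the vehicle library).

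**Figure D4:**
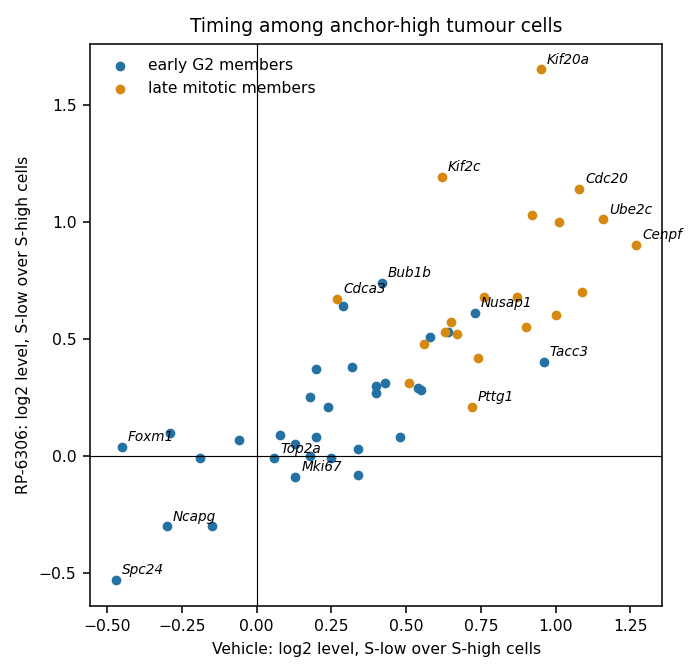
Timing of each gene within anchor-high tumour cells, as log2 of the level in cells with few over cells with many S phase UMIs, vehicle against RP-6306. Late mitotic genes lie above 0 in both libraries and early G2 genes spread from -0.53 to 0.96 across both.

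In the class with at most 5 S phase UMIs the members summed to 13494 and 12287 CPM, a ratio of 0.911 (0.887 to 0.935). In the middle class, the largest, they summed to 12912 and 11335 CPM, a ratio of 0.878 (0.861 to 0.895). In the class with 12 or more they summed to 9098 and 8783 CPM, a ratio of 0.965 (0.937 to 0.994). Late genes were at 4003 CPM in both libraries in the class with 12 or more. Early genes were at 5095 and 4779 CPM there. Anchor-low cells with 12 or more S phase UMIs were 259 vehicle cells (4.05%) and 387 RP-6306 cells (5.83%), a difference of 1.77 points (1.02 to 2.53) in the opposite direction to the anchor-high share.

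Shares of cells with at least 1 UMI were also compared gene by gene. At 5000 UMIs per cell, 51 of the 52 genes were seen in a smaller share of RP-6306 tumour cells, as were 57.0% of 11880 genes with at least 100 UMIs at this depth. Bub3 was the exception, in 57.0% (55.8 to 58.2) of vehicle and 58.2% (57.0 to 59.4) of RP-6306 cells. Ube2c was seen in 37.6% (36.4 to 38.8) and 33.1% (32.0 to 34.3), and without thinning in 47.6% and 42.6%. In macrophages with no anchor UMI, which should lack it, Ube2c was seen in 11.3% and 7.69% of cells at median depths of 4683.5 and 4267.5 UMIs. Top2a was seen in 29.6% and 26.7% of tumour cells, against 6.67% and 10.99% of those macrophages. Plk1 was seen in 10.6% (9.81 to 11.3) and 7.94% (7.30 to 8.61), and in 0 of 150 and 0 of 182 macrophages. Such zeros allow shares of up to 2.0% and 1.65%. Pttg1, at 24.4% and 23.0%, lay near its macrophage shares of 16.7% and 24.2%. Per cell, the median sum over the 52 genes was 4 UMIs in both libraries, the lower quartile 3 and 2, the upper quartile 20 and 12, and the highest decile began at 51 and 43. Cells with no UMI of any member were 2.46% and 3.13%.

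Related genes outside the set were taken from lists made by function. Beside their counts, 6.57% of all 13671 genes were at -0.25 or lower and 5.24% at 0.25 or higher. Of 30 other kinetochore and centromere genes, 5 were at -0.25 or lower and none at 0.25 or higher, with a median of -0.10. They ran from Cenpp, of the constitutive centromere network, at 11.8 and 8.56 CPM, to Cenpk of the same network at 16.01 and 17.9 CPM. Of 20 other spindle and cytokinesis genes, 9 were at -0.25 or lower, with a median of -0.24, from Troap (11.3 and 8.01 CPM), a spindle-associated protein, to Bora (12.8 and 13.3 CPM), the partner through which Aurora A activates PLK1. None of 9 other condensin and cohesin genes passed, with a median of -0.14, from Ncaph2 (50.4 and 42.8 CPM) to Stag1 (78.4 and 81.5 CPM). Of 15 subunits and partners of the anaphase promoting complex, 1 passed (6.67%), which is near the share of all genes. It was Fzr1 (28.5 and 22.7 CPM), the G1 activator of the complex, and the median of the list was -0.07. Anapc11, the RING subunit of the complex, stood at 276 and 296 CPM. None of the 24 S phase genes was at -0.25 or lower and 4 were at 0.25 or higher, with a median of 0.07, from Gins2 at -0.11 to Ung, a uracil repair enzyme, at 0.55 (9.34 and 14.1 CPM).

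Cycling macrophages gave the same genes in other cells of the same tumours. Macrophages were gated by C1q and myeloid genes with at most 2 UMIs of Krt8 and Krt18, which gave 231 vehicle and 261 RP-6306 cells. Cells with at least 3 anchor UMIs were called cycling, 39 (16.9%, 12.3 to 22.3) and 36 (13.8%, 9.85 to 18.6), so the values rest on few cells. Tumour markers summed to 93.0 and 95.2 CPM in them, against 169 and 126 CPM in macrophages without anchor UMIs. In the vehicle library Cdh1 gave 28.9 of the 93.0 CPM and 48.3 of the 169 CPM. It stood at only 0.0754 CPM in vehicle tumour cells, so these sums do not read tumour transcripts alone. Krt8 stood at 35.3 and 49.2 CPM in cycling macrophages, against 1044 and 787 in tumour cells. The part that free RNA or joined cells play in these values was not tested beyond that.

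The 52 genes summed to 7445 CPM (2321 UMIs) and 7097 CPM (2162 UMIs) in cycling macrophages, a ratio of 0.953 (0.899 to 1.01), and to 628 and 635 CPM in macrophages without anchor UMIs. Early genes summed to 4535 and 4028 CPM, a ratio of 0.888 (0.822 to 0.959), and late genes to 2909 and 3069 CPM, a ratio of 1.06 (0.962 to 1.16). S phase genes were at 2406 and 1553 CPM, a ratio of 0.645 (0.574 to 0.725), and whether these few cells also differed in phase was not tested. Of the 52 genes 21 (40.4%) were at -0.25 or lower and 10 (19.2%) at 0.25 or higher, beside 32.2% and 28.6% of the 6869 tested genes. Each member had only 13 to 331 UMIs over both libraries. Intervals left out 1 for 3 members, and for 6.93% of all genes tested. Ube2c was at 443 CPM (372 to 523) and 634 CPM (547 to 730), the opposite direction to tumour cells. Mad2l1 was at 109 and 39.4 CPM, from 34 and 12 UMIs, and Spc24 at 73.8 and 32.8 CPM, from 23 and 10 UMIs.

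Cycling macrophages were set against tumour cells with at least 3 anchor UMIs, which were deeper (medians of 14111 and 14156 UMIs, against 7848 and 7881). Early genes summed to 4178 and 3700 CPM in those tumour cells, and late genes to 4067 and 3665 CPM. Some members stood at unlike levels in both libraries. Whether the macrophages and tumour cells held the same mix of stages was not tested. Mki67 was at 369 and 371 CPM in cycling macrophages and 142 and 145 CPM in those tumour cells, a ratio of 2.60 (2.14 to 3.12) in the vehicle and 2.56 (2.11 to 3.09) in the RP-6306 library. Incenp was also higher in macrophages, with ratios of 2.16 (1.69 to 2.73) and 1.92 (1.47 to 2.47), as were Cdca8 (1.39 and 1.51) and Cdca3 (1.35 and 1.74). Cdc20 was lower, at 138 and 112 CPM against 271 and 245 CPM, with ratios of 0.509 (0.368 to 0.686) and 0.456 (0.315 to 0.637). Ube2c, Tpx2, Sgo1 and Cks2 were lower in both libraries too, with ratios from 0.451 to 0.706. Top2a was alike, with ratios of 0.932 (0.792 to 1.09) and 0.945 (0.790 to 1.12).

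**Figure D5:**
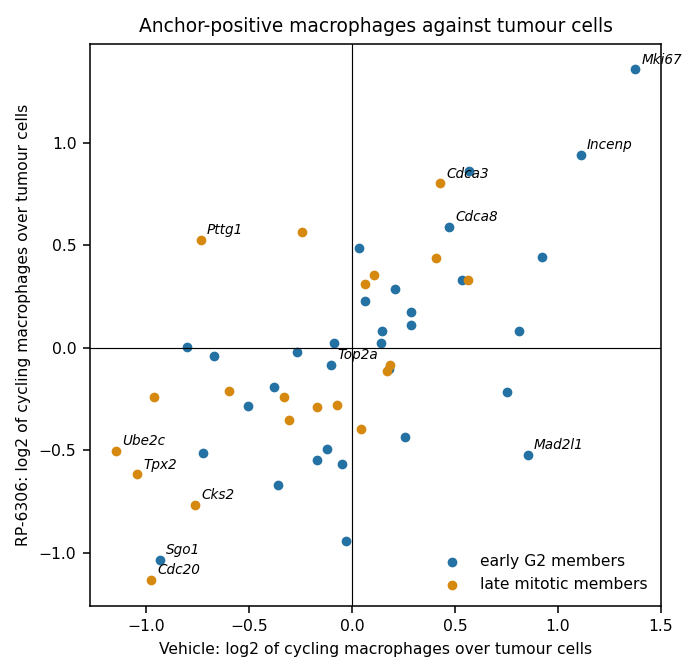
Log2 of the level of each gene in cycling macrophages over that in tumour cells with at least 3 anchor UMIs, vehicle against RP-6306, without intervals. Mki67 and Incenp lie highest above 0 in both libraries, and Cdc20, Ube2c, Tpx2, Sgo1 and Cks2 lie below 0 in both.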

How the data were processed

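The authors' deposited matrices hold raw UMI counts, as whole numbers that were not scaled. Cell Ranger 7.1.0 wrote them per the file headers, whereas version 2.1.1 with mm10 is given in the submitters' processing notes; which of these holds is unknown. Cell Ranger drops reads shared between genes, which lowers near-identical copies; 12 members overlap another annotated gene on the same strand (Foxm1 overlaps Tex52, for example). Barcodes with under 500 genes or over 15% mitochondrial UMIs were removed. Scrublet in scanpy 1.11.5 called 0 and 1 doublets, which was taken as a failure, so cells above the limit for the highest 8% of scores were removed (684 and 808). Counts were summed per gate and turned into CPM. Log2 ratios use a pseudocount of 1, which understates differences of low genes. Exact Poisson, binomial (Clopper-Pearson) and conditional intervals were computed with scipy 1.17.1, and the interval of a difference of shares from both binomial intervals. No test was made with 1 library per group. Macrophages had at least 3 UMIs of C1qa, C1qb and C1qc, and at least 3 of Lyz2, Fcer1g, Tyrobp and Csf1r. The leukocyte genes of the tumour gate were Ptprc, Lyz2, C1qa and Fcer1g. The text names, in each role group, the most abundant gene and those with the lowest and highest ratio, a fixed set of well-known genes, the ends of each related list, and further members chosen after their values were seen. The members and lists were chosen with earlier results of these data known. Groups come from the labels. Scripts were tested on simulated counts.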

Additional observations from a re-analysis of the deposited data

How the results depend on the processing

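No paired analysis was possible because each treatment has 1 library and the labels carry no replicate numbers, so no library could be left out. The count of 34 genes at -0.25 or lower ran from 23 to 35 under the other scaling, gates, doublet, mitochondrial, thinning, pseudocount, filter and level settings, and was 2 (Tacc3 and Ncapg) at a limit of -0.5, where 0.592% of all genes stood. Over 10 settings per gene the direction turned once: Dlgap5 stood at 0.026 with at least 10 UMIs of Krt8 and Krt18. The summed early and late ratios were 0.846 and 0.846 with median-of-ratios scaling, 0.862 and 0.861 with the gate at 10 keratin UMIs, 0.826 and 0.823 with the gate at 1 (chosen after seeing the data), and 0.841 and 0.847 with no leukocyte UMI allowed. They were 0.824 and 0.824 with no doublet removal, 0.825 and 0.813 as the mean of per-cell CPM, and 0.822 and 0.806 in cells thinned to 5000 UMIs. In anchor-high cells thinned to 3000 UMIs, a smaller share of both libraries, the difference of shares was -1.93 points (4.89% and 2.96%) and the summed ratio 0.941. That ratio was 0.894 with no doublet removal and 0.887 with the keratin gate at 1. The causes of these shifts were not tested. Cycling macrophages rest on 39 and 36 cells, and their summed ratio of 0.953 was 0.955 with no doublet removal, 0.960 with no keratin UMI (23 and 18 cells) and 0.934 with 2 anchor UMIs.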
